A study of Mus musculus with 6 samples.

Results

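The Bcl2 family decides at the mitochondrion whether a cell survives or dies. Its survival proteins (Bcl2, Bcl-xL and Mcl1) bind and restrain the effectors Bax and Bak, which otherwise open pores in the outer mitochondrial membrane, release cytochrome c and start the caspase cascade. BH3-only proteins sense stress and tip this balance, some by neutralising the survival proteins and others by activating the effectors directly. In growing vessels the same machinery can remove endothelial cells.

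The 10 family genes described here were chosen by symbol: the survival genes Bcl2, Bcl2l1 (which encodes Bcl-xL) and Mcl1, the effector genes Bax and Bak1, and the BH3-only genes Bad, Bid, Bbc3 (Puma), Pmaip1 (Noxa) and Bcl2l11 (Bim). Each had 1 row among 23827 listed genes, and 10 of 10 passed a filter of a mean of at least 1 RPKM (reads per kilobase of transcript, scaled to the depth of the library), as did 12493 genes in all. RNA came from brain endothelial cells of mouse embryos at E14.5 (embryonic day) by translating ribosome affinity purification (TRAP), which recovers the RNA on tagged ribosomes of a chosen cell type. Embryos of both groups were of the strain C57BL/6 x 129/Sv, and the mothers of both had received tamoxifen at E12.5. The 3 wild-type libraries carried no listed modification, and the 3 Axin1 overexpression libraries carried an Axin1 IresLacZ transgene at R26 (the Rosa26 locus). Axin1 is the scaffold protein on which beta-catenin is tagged for degradation, and its excess is used to dampen Wnt signalling. The labels name neither the driver of recombination, nor the allele that tags the ribosomes, nor the number of embryos per library. Libraries of a group are labelled biological replicates.

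Wild-type libraries held 53524184 to 62507510 recovered reads and Axin1 libraries 21076922 to 37040176. Axin1 itself went from 14.4 ± 0.798 to 37.8 ± 0.349 RPKM (SD, n = 3), and the groups did not overlap. Of 10 endothelial markers 1 was higher and 3 lower with Axin1 overexpression, and their summed level was 3115 to 3260 RPKM in wild type and 2599 to 2804 RPKM with Axin1 overexpression. Cldn5 alone went from 1263 to 748 RPKM, beside 3190 to 2732 RPKM for the sum (group means). Tie1 and Esam were the other lower markers and Emcn was the higher marker. The rest, Pecam1 and Cdh5 among them, did not pass. Over all tested genes 14.4% were called higher and 8.37% lower (limma adjusted p under 0.05), to be set beside each count of markers here. Markers of other cells were present too. The summed level of 10 neural progenitor markers was 595 to 726 against 788 to 867 RPKM, with 6 higher. That of 10 neuron markers was 486 to 606 against 572 to 591 RPKM, with 3 higher. Erythroid markers (10 genes) came to 98.1 to 126 against 321 to 643 RPKM, with 4 of 5 tested higher and 1 lower, although Slc4a1 and Klf1 lay under the filter and Hba-a1 and Hba-a2 were listed at 0 in all 6 libraries. Microglia and macrophage markers (10 genes) came to 39.2 to 41.1 against 40.0 to 69.4 RPKM, with 2 of 9 tested higher. Pericyte and smooth muscle markers (11 genes) came to 44.4 to 52.4 against 31.9 to 45.1 RPKM, with 4 of 9 tested lower. Meningeal fibroblast markers (10 genes) came to 202 to 307 against 218 to 219 RPKM, with 2 lower. Bcl2 family genes are active in most cell types, and the part of these other cells in the results below was not tested. In such bulk libraries, fewer cells of a type and less RNA per cell cannot be told apart. The column names carry 1 tag for every wild-type library and another for every Axin1 library. If that tag marks a run, run and genotype cannot be told apart.

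Promoter windows of 9 of the 10 genes were taken from RefSeq (GRCm38.p6). Pmaip1 changed too, but its window was not among the 9, so it was neither shown nor searched. The windows of Bax and Bid are shown because these genes changed. That of Bak1 is shown because it is the other effector and did not pass the test. Each is the 250 bases before the annotated start, 5′ to 3′ on the gene's own strand, with capitals marking matches to the motifs searched.
Bax, chr7:45466899-45467148, minus strand: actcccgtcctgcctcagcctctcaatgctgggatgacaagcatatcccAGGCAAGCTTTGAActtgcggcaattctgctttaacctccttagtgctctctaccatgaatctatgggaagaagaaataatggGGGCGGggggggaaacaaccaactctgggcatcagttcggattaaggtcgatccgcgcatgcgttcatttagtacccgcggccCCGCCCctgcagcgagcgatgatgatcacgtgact
Bid, chr6:120916825-120917074, minus strand: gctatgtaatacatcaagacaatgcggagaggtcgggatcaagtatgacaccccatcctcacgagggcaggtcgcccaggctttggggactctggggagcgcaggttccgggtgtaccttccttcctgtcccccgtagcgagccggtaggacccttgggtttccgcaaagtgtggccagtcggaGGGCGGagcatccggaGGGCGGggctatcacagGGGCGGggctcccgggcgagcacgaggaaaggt
Bak1, chr17:27028628-27028877, minus strand: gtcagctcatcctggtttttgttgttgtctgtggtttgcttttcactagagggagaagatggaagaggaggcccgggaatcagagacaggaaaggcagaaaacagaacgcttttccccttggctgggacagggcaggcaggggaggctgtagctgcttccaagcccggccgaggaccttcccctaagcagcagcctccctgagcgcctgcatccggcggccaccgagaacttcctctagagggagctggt

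The motifs were searched on both strands. They were the GC box (GGGCGG), the TCF/LEF letters CTTTGAA or CTTTGAT, the p53 half-site, E2F (TTTCCCGC or TTTGGCGC) and FOXO (TGTTTAC). The Bax window held 1 match to the p53 half-site, 201 to 192 bases before the start, and 1 to the TCF/LEF letters at 194 to 188, so that the pair shares bases and forms the long run of capitals. Among all 32817 promoter windows of this length, 7.12% held a p53 half-site match and 7.48% a TCF/LEF match. Among the windows of tested genes these shares were 5.76% and 4.98%. Bax also held 2 GC boxes and Bid 3, a motif found in 32.7% of all windows and in 58.7% of the 11910 windows of tested genes. The Bak1 window held no match to these motifs. No TCF/LEF or p53 half-site match was found in the windows of the other 8 genes searched. The FOXO letters were present once in a window of Bcl2l11 and once in one of Bbc3. They were found in 3.16% of all windows and in 2.07% of those of tested genes. The Bcl2 window held 7 GC boxes in a sequence of 74.8% GC. A match of letters is a description of the window and not a site of binding.

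In wild-type brain endothelium the 10 genes fell into a high and a low set of 5 each. Bax was the most abundant at 100.01 ± 9.15 RPKM (SD, n = 3), followed by Mcl1 at 82.7 ± 2.69, Bak1 at 59.8 ± 1.12, Bad at 51.7 ± 1.02 and Bcl2l1 at 47.1 ± 2.93 RPKM. The library ranges of neighbours in this order did not overlap. The other 5 genes lay between 8.38 and 14.6 RPKM in the order Bbc3, Bcl2l11, Pmaip1, Bcl2 and Bid, and each overlapped with its neighbour. Bcl2, the founding member of the family, was therefore the lowest of the survival genes at 9.44 ± 1.07 RPKM (SD, n = 3) and made up 6.77% of their summed level. With Axin1 overexpression the 5 high genes kept their order, Bad and Bcl2l1 now overlapping, while Pmaip1 moved from the eighth place to the last, below the range of Bid.

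**Figure D1:**
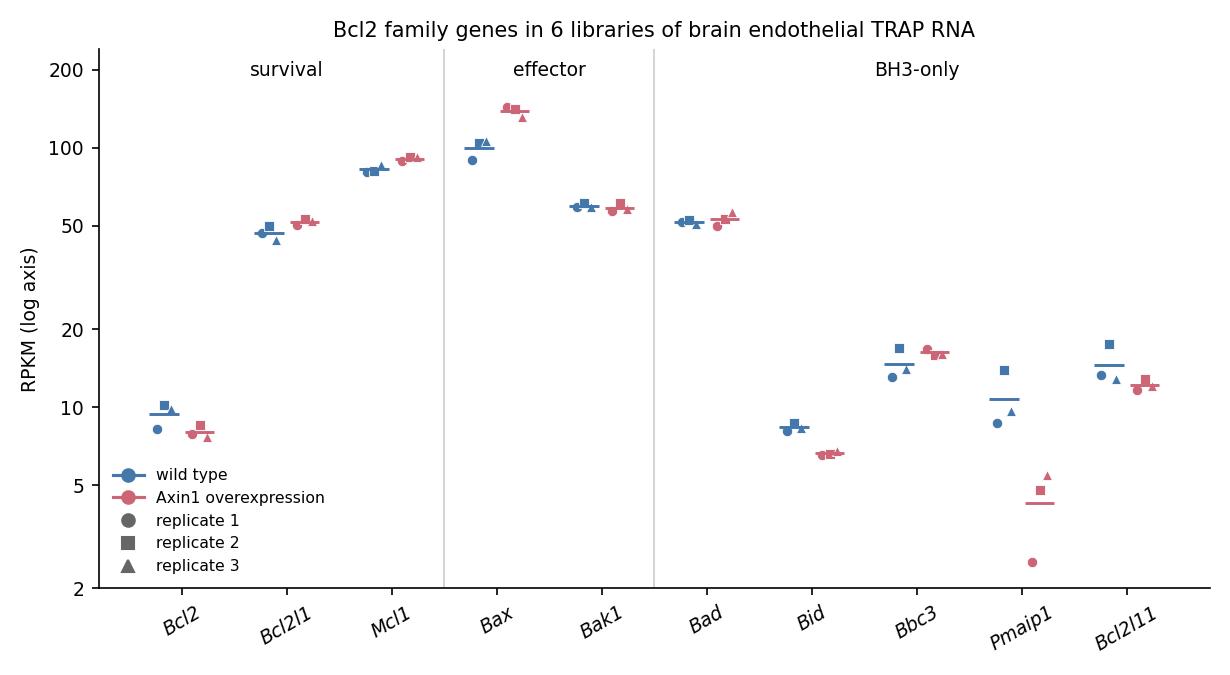
RPKM of the 10 genes (log axis) in each of the 3 wild-type and 3 Axin1 overexpression libraries, grouped by role, with horizontal lines at the group means. Bax lies higher, and Bid and Pmaip1 lie lower, in all 3 Axin1 libraries than in any wild-type library.

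Axin1 overexpression changed 3 of the 10 genes, 1 upward (Bax) and 2 downward (Bid and Pmaip1), at a limma adjusted p under 0.05. Over all tested genes 22.8% were called (14.4% higher and 8.37% lower), so a count of 3 in 10 was near the share over all genes. Before adjustment 5 members had a limma p under 0.05, beside 39% of tested genes. The authors' deposited table, with an adjusted p under 0.05, calls the same 3 members and 12.4% of tested genes. Groups did not overlap for 5 members (Bax, Bcl2l1 and Mcl1 upward, Bid and Pmaip1 downward), beside 43.9% of all tested genes (28% upward and 15.9% downward). The median log2 fold change of the members was 0.0068, and that of all tested genes was 0.04. Fold changes compare log2(RPKM + 1), so that those of genes at a low level come out too small, with a plus sign for a higher level under Axin1 overexpression. The 3 calls held under each of 16 alternative settings.

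**Figure D2:**
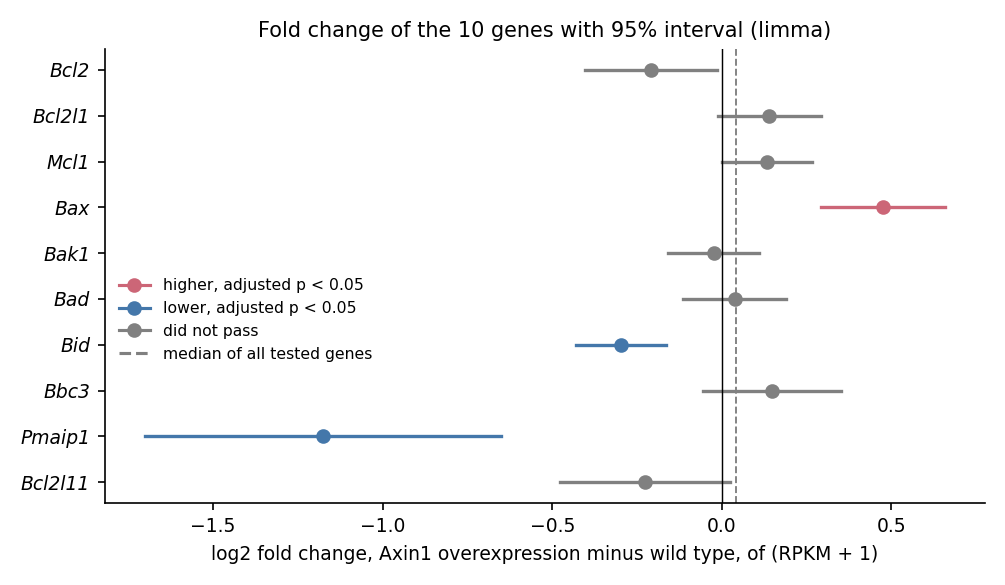
Log2 fold change of (RPKM + 1), Axin1 overexpression minus wild type, for each gene (point) with its 95% interval from limma (line); the dashed line is the median of all tested genes at 0.04. The intervals of Bax, Bid and Pmaip1 lie farthest from 0 relative to their width.

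Among the survival genes none passed the test. Mcl1 encodes a short-lived protein that must be made continuously. It stood at 80.8, 81.6 and 85.8 RPKM in wild-type replicates 1 to 3 and at 88.7, 92.0 and 91.8 RPKM in Axin1 replicates 1 to 3. Every Axin1 library was thus above every wild-type library, by a small margin. The log2 fold change was 0.13 (95% interval 0.0013 to 0.27, limma adjusted p = 0.126). With a pseudocount of 10 in place of 1 the adjusted p was 0.0374.

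Bcl2l1 had 47.0, 50.1 and 44.3 RPKM in wild type and 50.2, 53.3 and 52.4 RPKM with Axin1 overexpression. The groups did not overlap, but wild-type replicate 2 and Axin1 replicate 1 were nearly level. Its log2 fold change was 0.14 (95% interval -0.012 to 0.29, limma adjusted p = 0.156). Bcl2l1 shares part of its span with Cox4i2 in the reference annotation, and reads there cannot be told apart without strand.

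Bcl2 had 8.23, 10.2 and 9.86 RPKM in wild type and 7.86, 8.53 and 7.65 RPKM with Axin1 overexpression. The groups overlapped through wild-type replicate 1, which lay below Axin1 replicate 2. The log2 fold change was -0.21 (95% interval -0.40 to -0.013, limma adjusted p = 0.11). Without wild-type replicate 1 it was -0.29 and passed (adjusted p = 0.0373). The authors' deposited table gives Bcl2 an adjusted p of 0.192.

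Of the effectors Bax passed the test and Bak1 did not. Bax, whose protein moves from the cytosol to the mitochondrion to form pores, had 89.5, 104 and 106 RPKM in wild type and 144, 141 and 132 RPKM with Axin1 overexpression. All 3 Axin1 libraries lay well above the wild-type range. Its mean went from 100.01 ± 9.15 to 139 ± 6.35 RPKM (SD, n = 3), a ratio of 1.39 and a log2 fold change of 0.47 (SE 0.08, 95% interval 0.29 to 0.66, limma adjusted p = 0.00591). Of 7348 tested genes with a positive fold change, 4.4% moved as far or farther. The estimate lay between 0.40 and 0.52 when any 1 library was left out, and was 0.43 after correction for GC content and length. The authors' deposited table gives Bax an adjusted p of 0.00018. Between 2420 and 5297 reads stood behind each Bax value.

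Bak1, which resides on the mitochondrion and can stand in for Bax, had 59.3, 61.1 and 59.0 RPKM in wild type and 57.1, 61.3 and 57.8 RPKM with Axin1 overexpression. The groups overlapped fully. The log2 fold change was -0.02, and its 95% interval of -0.16 to 0.11 does not reach the estimate for Bax (limma adjusted p = 0.786). Ggnbp1 overlaps the span of Bak1 in the annotation.

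The 5 BH3-only genes held both calls for lower expression. Pmaip1 encodes Noxa, which binds Mcl1 and promotes its degradation. Its level was 8.66, 13.9 and 9.65 RPKM in wild type and 2.53, 4.79 and 5.46 RPKM with Axin1 overexpression. The groups were well separated, although both were spread widely, with coefficients of variation of 25.7% and 36.0%, the largest of the 10 genes. The mean fell from 10.7 ± 2.76 to 4.26 ± 1.53 RPKM (SD, n = 3), a ratio of 0.398 and a log2 fold change of -1.18 (SE 0.23, 95% interval -1.70 to -0.65, limma adjusted p = 0.0106).

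Of 5145 tested genes with a negative fold change, 0.603% moved as far or farther than Pmaip1. The size depended on the scale: a pseudocount of 10 gave -0.54, and voom on recovered reads gave -1.40. Axin1 replicate 1 was the lowest library, and without it the log2 fold change was -0.91 (adjusted p = 0.021). The authors' deposited table gives Pmaip1 an adjusted p of 0.00351. The lowest Pmaip1 value rests on 245 reads and the highest on 1959.

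Bid links death receptors to the mitochondrion, since caspase 8 cleaves its protein into an active fragment. It had 8.11, 8.71 and 8.31 RPKM in wild type and 6.52, 6.6 and 6.76 RPKM with Axin1 overexpression. Replicates of each group lay close together and the groups were apart. The mean fell from 8.38 ± 0.309 to 6.63 ± 0.125 RPKM (SD, n = 3), a ratio of 0.791 and a log2 fold change of -0.30 (SE 0.06, 95% interval -0.43 to -0.17, limma adjusted p = 0.0105). The estimate was -0.14 with a pseudocount of 10 and -0.38 after correction for GC content and length. Without Axin1 replicate 2 its adjusted p was 0.0498, just under the threshold. The authors' deposited table gives Bid an adjusted p of 0.027.

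Bcl2l11 encodes Bim, a strong activator induced when growth factors are withdrawn. It had 13.3, 17.6 and 12.8 RPKM in wild type and 11.6, 12.9 and 12.1 RPKM with Axin1 overexpression. The groups overlapped, and wild-type replicate 2 stood alone at the top. Its log2 fold change was -0.23 (95% interval -0.48 to 0.025, limma adjusted p = 0.165), and it was -0.09 without wild-type replicate 2. Acoxl overlaps its span in the annotation.

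Bbc3 encodes Puma, a p53 target that binds all the survival proteins. It had 13.1, 16.8 and 14 RPKM in wild type and 16.8, 15.9 and 16 RPKM with Axin1 overexpression. Wild-type replicate 2 was again the highest of its group and level with the Axin1 libraries. The log2 fold change was 0.15 (95% interval -0.056 to 0.35, limma adjusted p = 0.253). Without wild-type replicate 2 it was 0.25 and passed (adjusted p = 0.0366).

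Bad, which is kept inactive in the cytosol by phosphorylation and binding to 14-3-3 proteins, had 51.6, 52.8 and 50.8 RPKM in wild type and 49.7, 53.1 and 56.7 RPKM with Axin1 overexpression. The wild-type values lay inside the Axin1 range. The log2 fold change was 0.04 (95% interval -0.11 to 0.19, limma adjusted p = 0.705), and its sign turned with either rescaling of the libraries. Gpr137 overlaps its span in the annotation.

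**Figure D3:**
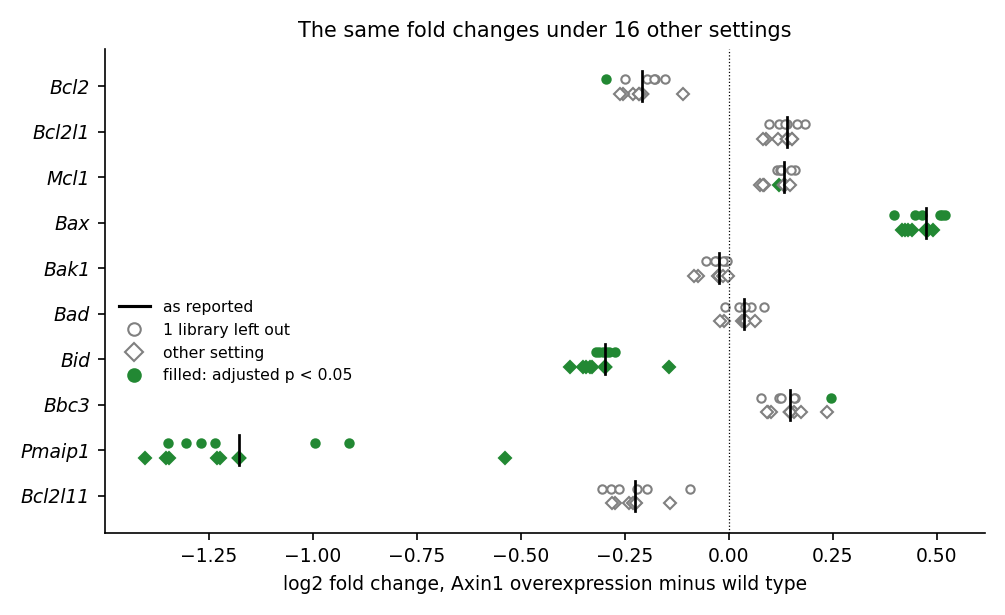
Log2 fold change of each gene under 16 other settings: circles leave out 1 library, diamonds change the scaling, filter, pseudocount or model, and filled symbols passed an adjusted p of 0.05. Bax, Bid and Pmaip1 are filled throughout, and Bcl2, Mcl1 and Bbc3 are filled in 1 setting each.

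Wild-type replicate 2 gave the highest wild-type value for 8 of the 10 genes, including 5 of the 5 BH3-only genes, whereas replicate 3 did so for Bax and Mcl1. Over all tested genes replicate 2 was the highest of the wild-type libraries for 36.4%. The deviation of its genes from the group mean had a Pearson r of 0.058 with GC content across 12459 genes, which are not independent replicates. For wild-type replicates 1 and 3 this r was 0.168 and -0.244, farther from 0 than for replicate 2. Bax, Bid and Pmaip1 passed without wild-type replicate 2, with log2 fold changes of 0.51, -0.27 and -0.99.

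Because RPKM is scaled by length, the genes can be set against each other within a library, as far as the lengths used hold. These ratios are descriptions and were not tested, since their members were chosen. Bax exceeded Bcl2 by 10.9, 10.2 and 10.8 times in the wild-type libraries and by 18.3, 16.6 and 17.2 times with Axin1 overexpression. The replicates of each group were close and the groups were far apart, with Bax called higher and Bcl2 not called. The size of this ratio rests largely on length. Reference transcripts measure 867 bases for Bax and 7191 for Bcl2, which is listed with 2 transcripts. Recovered reads in wild-type replicates 1 to 3 were 4824, 4834 and 5297 for Bax and 3698, 3949 and 4104 for Bcl2. Bax supplied 60.2 to 64.3% of the summed Bax and Bak1 level in wild type and 69.5 to 71.6% with Axin1 overexpression.

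The summed effectors stood at 1.09, 1.17 and 1.18 times the summed survival genes in wild type and at 1.37, 1.32 and 1.25 times with Axin1 overexpression. The summed BH3-only genes went the other way, from 0.696, 0.773 and 0.683 to 0.594, 0.606 and 0.639 of the survival sum. Neither ratio overlapped between the groups. The BH3-only sum itself did overlap, at 94.7 to 110 RPKM in wild type and 87.2 to 97.0 RPKM with Axin1 overexpression, while the survival sum was 136 to 142 against 147 to 154 RPKM. The effector ratio depended on which genes were counted: with Bok, a relative of Bax and Bak, added to the effectors it was 1.74 to 1.85 in wild type and 1.80 to 1.86 with Axin1 overexpression, and the groups overlapped. When effectors and BH3-only genes were added together, the ratio to the survival sum was 1.86 ± 0.0745 in wild type and 1.92 ± 0.0376 with Axin1 overexpression (SD, n = 3), and the groups overlapped. Mcl1 exceeded Pmaip1 by 9.33, 5.89 and 8.89 times in wild type and by 35.0, 19.2 and 16.8 times with Axin1 overexpression. Pmaip1 supplied 10.6 ± 1.80% of the summed BH3-only level in wild type and 4.56 ± 1.45% with Axin1 overexpression (SD, n = 3).

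**Figure D4:**
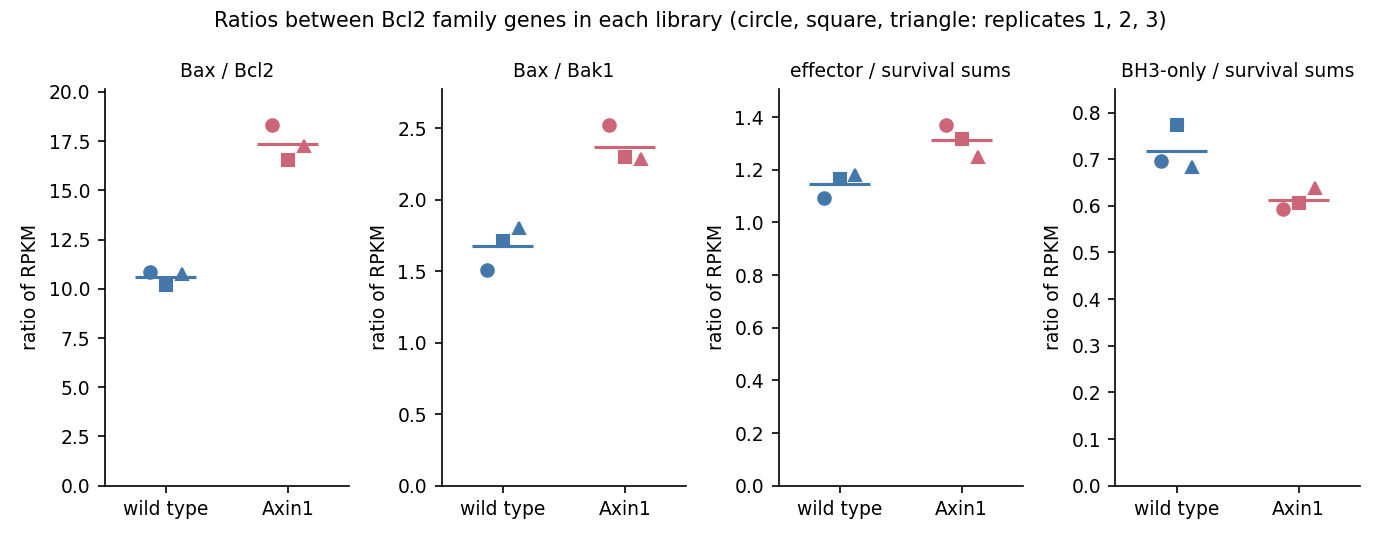
Ratio of RPKM in each library (symbols for replicates 1 to 3, lines at the group means) for Bax over Bcl2, Bax over Bak1, the summed effectors over the summed survival genes and the summed BH3-only genes over the summed survival genes. Bax over Bcl2 is 10.2 to 10.9 in wild type and 16.6 to 18.3 with Axin1 overexpression, and the BH3-only ratio is the panel that goes down.

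Of 20 further family and BH3 genes, 12 were tested, with 1 higher and 1 lower and a median log2 fold change of 0.04, the same as over all tested genes. The share called was near the 22.8% over all genes. No gene of this list was called without the filter or without wild-type replicate 2 or Axin1 replicate 2, and with a filter of 5 RPKM 2 were higher and 2 lower. Bik, a BH3-only gene of the endoplasmic reticulum, had 4.55, 4.08 and 4.63 RPKM in wild type and 6.14, 7.19 and 11.6 RPKM with Axin1 overexpression. The groups were apart, with Axin1 replicate 3 far above the other two (log2 fold change 0.74, limma adjusted p = 0.022). Its call was lost in 4 of 16 alternatives, among them leaving out wild-type replicate 2 or Axin1 replicate 2. Bok went from 93.1 ± 4.07 RPKM in wild type to 78.1 ± 5.56 RPKM (SD, n = 3 each; a log2 fold change of -0.25, limma adjusted p = 0.0382), and in wild type its library range overlapped with that of Bax. The Bok call was lost in 9 of 16 alternatives, leaving out any 1 library among them. Bnip2 did not pass (0.19, adjusted p = 0.0613). The 4 Bcl2a1 copies, near-identical genes among which reads may be split, were under the filter in these libraries, at group means of 0 to 0.195 RPKM.

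Downstream of the mitochondrion, 3 of 16 tested caspase and apoptosome genes were higher and 1 was lower, with a median of 0.03, near the shares over all genes of 14.4% and 8.37%. Casp6, an executioner caspase, fell from 40.7 ± 1.70 RPKM in wild type to 32.1 ± 2.20 RPKM (SD, n = 3 each; a log2 fold change of -0.33, limma adjusted p = 0.0136), a call that held in 16 of 16 alternatives. Among the higher genes were Apaf1, the scaffold of the apoptosome (0.29, limma adjusted p = 0.0399), and the channel gene Vdac2, whose protein holds Bak at the membrane (0.24, adjusted p = 0.0366). The number of higher genes in this list was 0 with either rescaling of the libraries and without wild-type replicate 1 or 2 or Axin1 replicate 2 or 3. Among 9 tested inhibitors of apoptosis limma called 1 higher and 0 lower (median 0.05). That gene, Birc5 (survivin, which also acts in mitosis), rose from 84.9 ± 2.58 RPKM in wild type to 108 ± 1.84 RPKM (SD, n = 3 each; a log2 fold change of 0.34, adjusted p = 0.00581), in 16 of 16 alternatives. Neither Birc2 (log2 fold change 0.14) nor Birc3 (-0.21), both of which encode ubiquitin ligases of TNF receptor signalling, passed.

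Death receptor genes went both ways, with 2 of 11 tested higher and 2 lower (median 0.02), beside 14.4% and 8.37% over all genes. Tnfrsf21 (death receptor 6) fell from 28.5 ± 2.67 RPKM in wild type to 20.7 ± 1.46 RPKM (SD, n = 3 each; a log2 fold change of -0.45, limma adjusted p = 0.00925). Tnfrsf25 (death receptor 3) fell from 2.68 ± 0.38 to 1.5 ± 0.0996 RPKM (SD, n = 3; -0.56, adjusted p = 0.0041); a pseudocount of 10 gave -0.14. The TNF receptor gene Tnfrsf1a was higher (0.26, adjusted p = 0.0165), and so was the TRAIL receptor gene Tnfrsf10b (0.34, adjusted p = 0.035). Neither of these passed when wild-type replicate 1, Axin1 replicate 2 or Axin1 replicate 3 was left out, where the count of higher genes was 0.

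Genes of the p53 pathway were higher in 8 of 18 cases and lower in 0 by limma, beside 14.4% and 8.37% over all genes, with a median of 0.20. The count of higher genes rested on single libraries and on scaling: it was 1 without Axin1 replicate 2, 2 without Axin1 replicate 1 and 3 without wild-type replicate 1. It was 3 after correction for GC content and length, 4 with either rescaling and 4 with no filter. Trp53 itself stood at 74.1 RPKM in wild type and 74.8 RPKM with Axin1 overexpression (log2 fold change 0.01, adjusted p = 0.898). Plk2, a kinase gene, rose from 72.4 ± 6.98 to 122 ± 7.37 RPKM (SD, n = 3; 0.74, limma adjusted p = 0.001), in 16 of 16 alternatives. Phlda3, an inhibitor of Akt, had a log2 fold change of 0.56, the receptor gene Eda2r 0.68, Gtse1 0.43 and the polymerase gene Polk 0.30, with adjusted p between 0.0155 and 0.0302. Among these Gtse1 lost its call without Axin1 replicate 2, and the others in 4 to 7 alternatives, one of which corrected for GC content and length. The other higher genes were Ccng1 (0.37, adjusted p = 0.0294), Aen (0.25, adjusted p = 0.0367) and Mdm2, the ubiquitin ligase of p53 (0.20, adjusted p = 0.0403). Cdkn1a, the cell cycle inhibitor, did not pass (0.12, adjusted p = 0.399). Among the members, Bax, Bbc3 and Pmaip1 are classical p53 targets too, and their log2 fold changes were 0.47, 0.15 and -1.18, of which Bax and Pmaip1 were called. Of 10 neural progenitor markers 6 were higher in the same libraries, while Nes, Hes5, Slc1a3 and Notch1 did not pass. The part of such cells in the p53 pathway values was not tested.

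Among upstream regulators of BH3 genes 3 of 16 tested were higher and 1 lower (median -0.01), near the 14.4% and 8.37% over all genes. Atf4, Jun and Mapk8, which encode stress-response transcription factors and the kinase JNK1, had log2 fold changes of 0.33, 0.30 and 0.26 (limma adjusted p between 0.0225 and 0.0291). Their calls were lost in 4, 6 and 8 of 16 alternatives, and the count of higher genes was 0 without wild-type replicate 1, Axin1 replicate 2 or Axin1 replicate 3. The lower gene was Rela, which encodes an NF-kappaB subunit (-0.20, adjusted p = 0.0345), and it did not pass when any 1 library was left out. Foxo3, a factor known to induce Bcl2l11 and Bbc3, had a log2 fold change of -0.13 (adjusted p = 0.162). Among 11 tested genes for turnover and sequestration of Bcl2 proteins limma called 4 higher and 0 lower (median 0.15), namely the 14-3-3 genes Ywhaq, Ywhaz, Ywhab and Ywhah. Ywhaq rose from 29.7 ± 1.35 to 37.8 ± 1.55 RPKM (SD, n = 3; 0.34, adjusted p = 0.00917), in 16 of 16 alternatives. Ywhaz and Ywhab had log2 fold changes of 0.30 each. The list had 1 higher gene without Axin1 replicate 2 or 3 and after correction for GC content and length.

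**Figure D5:**
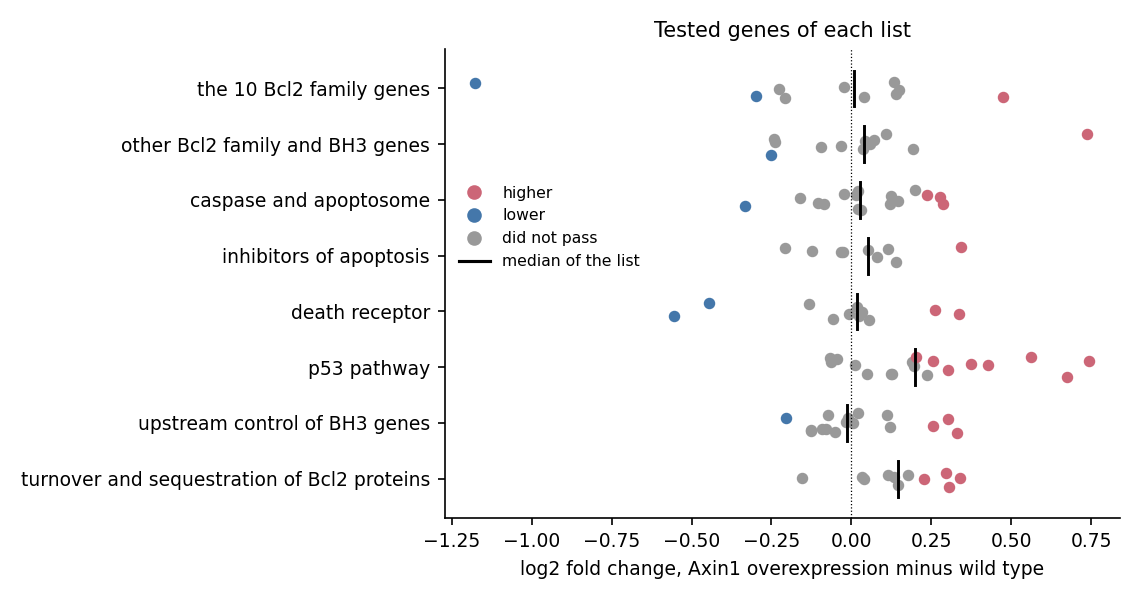
Log2 fold change of each tested gene (point) in the 10 Bcl2 family genes and in 7 lists, coloured by its call, with a black line at the median of each list; vertical scatter has no meaning. Pmaip1 is the lowest point at -1.18, and 8 of 18 p53 pathway genes are coloured as higher.

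By profile over the 6 libraries, the tested genes most like Bax were Fzd4, Spred1 and Tspan6, with a Pearson r of 0.995, 0.994 and 0.994 for log2(RPKM + 1). Those most like Pmaip1 were Scamp5, Ccdc85b and Fam187b, at 0.999, 0.998 and 0.995. Fzd4, the Norrin receptor gene, had a log2 fold change of 0.39 and Ccdc85b one of -0.25, and limma called both. Tspan6, Scamp5 and Fam187b were not called. The points of each correlation are 2 groups of 3 libraries, so a gene that differs between the genotypes in the same direction can score high from that alone. In all, 210 genes reached at least 0.95 with Bax and 163 with Pmaip1.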

How the data were processed

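The authors deposited 1 table with an RPKM value per gene and library. The unit is not in its header and was worked out: over 8603 genes, the length implied by the numbers was a median 0.986 times that of the reference transcript. Bowtie, DESeq and mm9 appear in the submitters' processing notes, and no source used here states the read counter. The authors also deposited group means of normalized counts (a signal per gene), their fold (ratio of means, wild type over Axin1) and p-values, per the file headers; the headers do not name the groups, and the means were matched to groups through genes with reads in a single library (548 wild-type and 302 Axin1 genes, none in conflict), so they served only to recover reads and are not printed. Reads were recovered by combining RPKM with these means: 100.0% of values of single-transcript genes were whole within 0.05 reads, and 83.6% of all values; those of Bcl2 and Bcl2l11, with several transcripts, were not. For a transcript of 1 kb, 3 reads (the upper limit for a count of 0, counting error only) equal 0.048 to 0.142 RPKM. Replicate libraries differed by more than sampling noise (chi-square per degree of freedom 7.29 to 43.6).

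limma 3.58.1 (R 4.3.3) was fitted to log2(RPKM + 1) of the 12493 genes that averaged 1 RPKM or more, with group as the only factor, and p was adjusted over all of them (Benjamini-Hochberg, two-sided, threshold 0.05). It was also run on simulated reads with a fixed spread and no effect of GC content, a simpler setting than these libraries, and no result here rests on that. An exact permutation test of 3 against 3 cannot go below 0.10 and was not used. Members, lists and marker lists were chosen with earlier results of these data known. Named genes were the members, Axin1, list genes that passed with a log2 fold change of at least 0.5, the 3 lowest p of each list, and the 3 profiles most like Bax and Pmaip1; other list genes (Tnfrsf10b, Trp53, Cdkn1a, Foxo3, Ccng1, Aen, Mdm2, Rela, Ywhah, the Bcl2a1 copies, Cycs, Casp9, Diablo, Casp12, Hrk) were named after their values were seen, and some list genes are not reported here by name. The 16 alternatives were other pseudocounts (0.1, 10), no filter or at least 5 RPKM, a replicate block, median of ratios, upper quartile, trend and robust variances, voom on recovered reads, a loess correction for GC content and length (span 0.5) and leaving out each library; counting the lists under them, and adding Bok to the summed effectors, were added after seeing the data. Promoters and overlapping genes came from RefSeq on GRCm38.p6, not the authors' build. Figures were drawn with matplotlib 3.10.9 in Python 3.11.15.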

Additional observations from a re-analysis of the deposited data

How the results depend on the processing

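The calls of Bax, Bid and Pmaip1 kept their direction and stayed under the threshold in 16 of 16 alternatives each. The number of members called was 3 or 4 throughout, and 3 to 4 when a library was left out. Bad turned to -0.012 with the median of ratios and -0.020 with the upper quartile, and lay between -0.0088 (without Axin1 replicate 3) and 0.084 when a library was left out. Birc2 turned to -0.0014 and Tspan6 to -0.026 after correction for GC content and length. Over all genes, 1815 were called after that correction in place of 2846, and 1054 to 2318 when a library was left out, the lowest without Axin1 replicate 2 and 1402 without Axin1 replicate 3; the cause was not tested, beyond the fewer samples. The split of 1800 higher and 1046 lower genes became 1248 and 1392 with the median of ratios and 1117 and 1466 with the upper quartile. With the replicate number as a block, 2675 genes and 3 members were called. The numbers were not taken as pairs, since deviations of same-numbered libraries correlated by 0.078, 0.13 and 0.059, although each library correlated best with its own number. The difference between groups in the ratio of summed effectors to survival genes was 0.166, and 0.015 with Bok added. The fewest reads behind a value were 245 for Pmaip1 (Axin1 replicate 1, its lowest level) and 270 for Bid (Axin1 replicate 3, the shallowest library).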

Other observations

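Cycs, which encodes the cytochrome c that Bax and Bak release, was listed at 0.801 RPKM in wild type and 0.887 RPKM with Axin1 overexpression (group means), under the filter of 1 RPKM. Its neighbours in the pathway, Apaf1, Casp9 and Diablo, stood at 13.9, 12.2 and 26.6 RPKM in wild type. How reads that match several places were counted is not stated by the sources used, so the Cycs value may understate its level. Casp12 was at 0.48 RPKM in wild type. Hrk, a BH3-only gene of neurons, had 3.02 RPKM in wild-type replicate 2 and 1.41 to 1.5 RPKM in the other 5 libraries.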
